A study of Mus musculus with 8 samples.

Results

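The class 3 semaphorins, plexins and neuropilins described here are 10 genes: the ligands Sema3a, Sema3c, Sema3d, Sema3e and Sema3f, the plexins Plxna2, Plxna4 and Plxnd1, and the neuropilins Nrp1 and Nrp2. They were taken by gene name, with every probe that the array annotation assigns to them, and were read by 15 of the 55681 probes of the array. All 10 genes were among the 24291 genes tested on 8 arrays, and 9 of them, all but Sema3e, were among the 23668 genes tested on 7 arrays. The samples were outflow tracts of mouse embryos at E10.5, dissected by hand and pooled 4 to a sample. There were 4 pools (1, 2, 3 and 7) of Raldh2-/- embryos rescued with retinoic acid and 4 pools (1, 2, 5 and 7) of rescued wild type littermates. Raldh2 (Aldh1a2) makes retinoic acid in the embryo, and the dams of both groups ate food with 0.1 mg/g all-trans-retinoic acid between E7.5 and E8.5, so no pool is untreated and the wild type pools are not unexposed embryos.

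Each pool was hybridised to 1 one-colour array of a single slide. All mutant arrays lay in the first row and all wild type arrays in the second, so an effect of the row and one of genotype cannot be told apart. One array differed from the rest, that of wild type pool 1: 94.7% of its spots were called well above background, against 53.3% to 63.2% on the other 7 arrays, and its median correlation with the others was 0.759, against 0.978 to 0.989. Group differences are therefore given with all 8 arrays and with the 7 arrays left without that pool. Aldh1a2 itself had log2 values of 2.02, 2.01, 1.87 and 0.06 in mutant pools 1, 2, 3 and 7, against 1.92, 3.21, 2.98 and 3.65 in wild type pools 1, 2, 5 and 7. It was lower in every mutant pool than in wild type pools 2, 5 and 7, and wild type pool 1 lay among the mutants. Where its probe lies relative to the deleted part of the gene is not given in the sources used here. These are whole tracts, so fewer cells of a type and less RNA per cell cannot be told apart for any gene below.

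Class 3 semaphorins are secreted guidance cues. Most bind neuropilins, which lack a signalling domain of their own and pair with A-type plexins, whose inner part acts on small GTPases, whereas Sema3e binds Plxnd1 directly. In mouse, loss of Sema3c or of Plxnd1 leads to failed division of the outflow tract and to aortic arch defects, Plxna2 marks cardiac neural crest cells, and Nrp1 also serves as a co-receptor of VEGF-A.

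Sema3c and Plxna2 are the members whose groups separated, and the start of the probes that read them is shown for that reason. The array carries 60 bases per probe, of which the first 30 are printed as the files give them. The upstream Sema3c probe lies at chr5:17234078-17234137 and the downstream one at chr5:17235981-17236040, 1903 bases apart, both on the plus strand, and the Plxna2 probe lies at chr1:196642958-196643017, also on the plus strand. These are the mm9 positions of the array annotation. Whether a probe lies in coding sequence or in a UTR was not determined here.
Sema3c upstream probe: acgtaaagtcaagagtgactcataaagagc
Sema3c downstream probe: ccctgtgtagagaaagcaaactagatgtag
Plxna2 probe: catgtacctattgtaaatatgaaactccta

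The 250 bases before the annotated start of both genes are shown because these are the members whose pools separated. They are RefSeq sequences in build GRCm38.p6, at chr5:17574566-17574815 for Sema3c and chr1:194619579-194619828 for Plxna2, both on the plus strand. Capitals mark matches on either strand to TGATAA or AGATAA (letters that GATA factors bind), AGGTCA (a half-site of retinoic acid receptors) and GGGCGG (a GC box). The marked matches do not overlap one another.
Sema3c upstream region: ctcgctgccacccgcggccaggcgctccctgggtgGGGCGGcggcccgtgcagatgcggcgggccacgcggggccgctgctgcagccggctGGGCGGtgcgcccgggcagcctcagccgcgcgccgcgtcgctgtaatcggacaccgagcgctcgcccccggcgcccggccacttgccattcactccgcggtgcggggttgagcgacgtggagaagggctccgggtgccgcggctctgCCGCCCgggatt
Plxna2 upstream region: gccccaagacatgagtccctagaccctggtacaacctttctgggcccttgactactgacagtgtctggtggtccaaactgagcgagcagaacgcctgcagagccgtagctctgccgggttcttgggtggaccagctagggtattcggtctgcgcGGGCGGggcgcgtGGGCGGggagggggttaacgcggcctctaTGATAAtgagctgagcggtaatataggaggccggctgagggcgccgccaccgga
The Sema3c window held 3 matches to GGGCGG and none to the other motifs, and 78.4% of its bases were G or C. The Plxna2 window held 1 match to TGATAA and 2 to GGGCGG, at 62.8% G or C. Of 32851 windows of the same length in the table, 7.94% held TGATAA, 9.99% AGATAA, 14.0% AGGTCA and 32.7% GGGCGG, and the median share of G or C was 52.4%. An entry was found for 8 of the 10 members. Plxnd1 and Nrp1 held 1 match each to AGGTCA, and no member other than Plxna2 among those 8 held TGATAA. These matches describe the letters of the windows and are not evidence of binding.

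The comparison asks how this ligand and receptor family stood in mutant tracts after the early rescue. Sema3c and Plxna2 were higher in every mutant pool than in every wild type pool, with or without wild type pool 1, and the other members were not. Wild type pool 1 was the lowest pool also for bright members that did not separate. Plxnd1 read 2.47 there, against 4.29 to 4.76 in the other pools, and Nrp2 2.13, against 3.77 to 4.50. The place of that pool below the mutants for Sema3c (downstream probe) and Plxna2 therefore adds no separate support. Values are log2 signals after subtraction of each array's upper quartile (75th percentile), a group difference is mutant minus wild type, and a gene with 2 probes is represented by the one with the higher mean, which in all 5 such genes was the downstream probe. By limma's moderated test, adjusted by Benjamini-Hochberg over all genes, 0 genes passed 0.05 on 8 or on 7 arrays, so no member passed. At an unadjusted p under 0.05, 160 genes (0.659%) were higher in mutants and 273 (1.12%) lower on 8 arrays, and 1477 (6.24%) were higher and 1030 (4.35%) lower on 7 arrays. Groups that did not overlap were found for 3.95% of genes with the mutants higher and 1.54% with the mutants lower on 8 arrays, and for 6.55% and 4.88% on 7 arrays. Among the members 2 of 10 and 2 of 9 separated with the mutants higher, and 0 with the mutants lower. Differences were above 0 for 7 of 10 members on 8 arrays, where 57.1% of all genes were, and for 8 of 9 on 7 arrays, where 59.3% were. The median difference of the members was 0.51 on 8 arrays, where that of all genes was 0.13, and 0.15 on 7 arrays, where that of all genes was 0.05. The 8-array median leans on wild type pool 1, which was low for bright members, and is not read as a rise of the family.

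**Figure D1:**
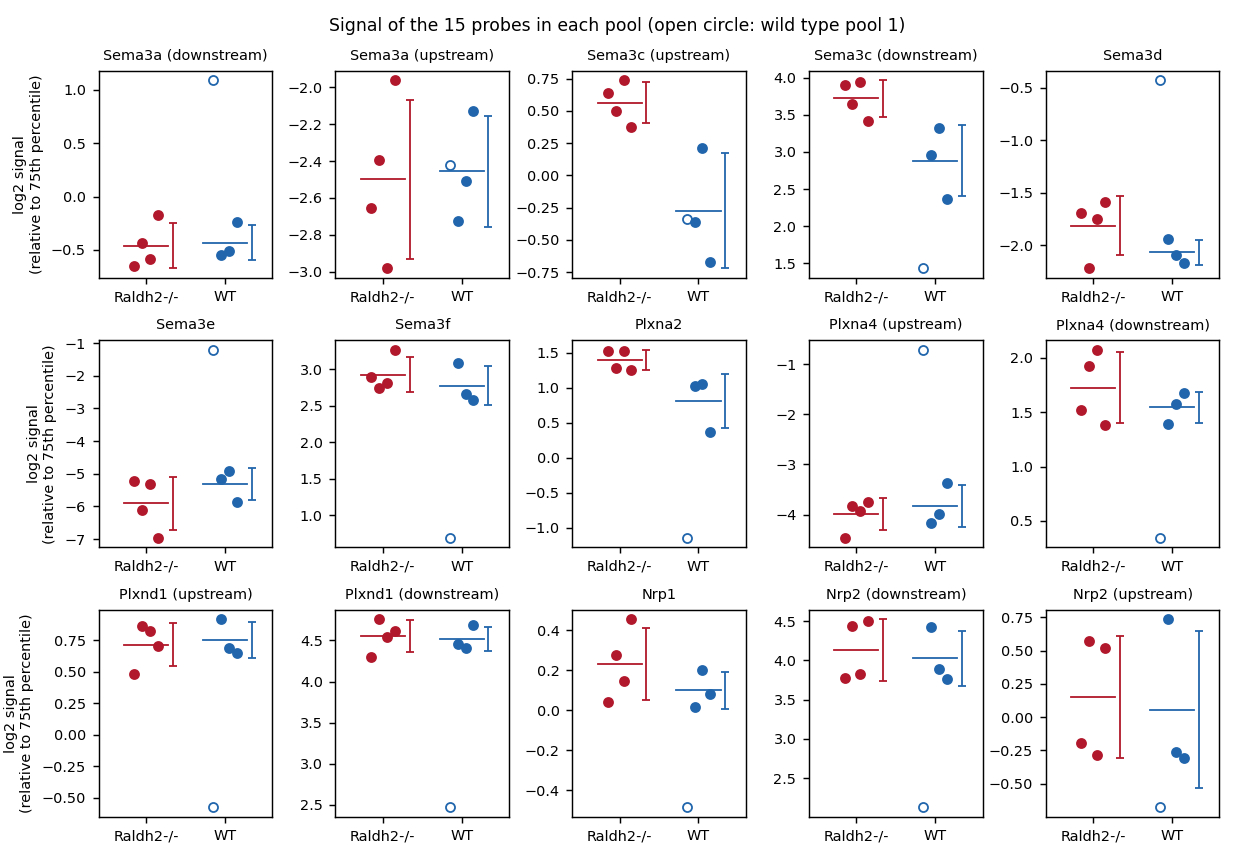
Scaled log2 signal (vertical axis, with the 75th percentile of each array at 0 and a scale of its own in each panel) of all 15 probes, with Raldh2-/- pools in red on the left and wild type pools in blue on the right; the open circle is wild type pool 1, and lines and bars give the mean and SD of 4 mutant and 3 wild type pools without it. In both Sema3c panels and in the Plxna2 panel all mutant circles lie above all wild type circles, and in the other panels they do not.

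Sema3c was the member with the largest positive difference. Its downstream probe read 3.90, 3.64, 3.94 and 3.41 in mutant pools 1, 2, 3 and 7, against 1.43, 2.97, 3.32 and 2.37 in wild type pools 1, 2, 5 and 7. The 4 mutant pools lay close together and above all wild type pools, but only by 0.09 at the closest point, where mutant pool 7 met wild type pool 5. The mean was 3.72 ± 0.246 in mutants (SD, n = 4) and 2.88 ± 0.479 in wild type pools 2, 5 and 7 (SD, n = 3), a difference of 0.84 (SE 0.241, 95% interval 0.27 to 1.41) or 1.79-fold. That is larger than the SD of either group. The unadjusted p of limma was 0.00993 and the adjusted p was 0.364. A two-sided exact permutation test over pools gave p = 0.0286, the smallest that 7 or 8 pools allow here, for both sets of arrays. The value with 8 pools is no second support, because wild type pool 1 was also lowest for bright members that did not separate. With wild type pool 1 the difference was 1.20 (SE 0.419, adjusted p = 0.735 by limma). A larger positive difference was found for 2.45% of all genes on 7 arrays and for 0.35% on 8 arrays.

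The upstream probe of Sema3c is a separate reading of the same pools. It gave 0.64, 0.50, 0.74 and 0.37 in mutant pools 1, 2, 3 and 7, against -0.34, -0.36, 0.21 and -0.67 in wild type pools 1, 2, 5 and 7. Again no wild type pool reached a mutant pool. Both probes put the 7 pools in one order, with mutant pools 3, 1, 2 and 7 highest and wild type pools 5, 2 and 7 below them, and the differences on 7 arrays were 0.84 for each. On 8 arrays the upstream probe gave 0.85, so here leaving out wild type pool 1 made little difference. Over all probes tested singly, 3.58% on 8 arrays and 6.38% on 7 arrays had mutant pools entirely above wild type pools. Before scaling, the downstream probe had processed signals of 15500, 11967, 17385 and 9362 in mutant pools 1, 2, 3 and 7, against 11383, 7035, 9282 and 3404 in wild type pools 1, 2, 5 and 7. Unscaled, wild type pool 1 lay above mutant pool 7, and wild type pool 7, whose array was the dimmest (75th percentile 659, against 880 to 1134 on the other arrays without pool 1), had the lowest signal.

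Sema3c and Plxna2 depend on how the arrays are scaled. With each array scaled to its median in place of its 75th percentile, the median of all genes moved to 0.69 on 8 arrays and to -0.17 on 7 arrays. Genes with the mutants entirely higher fell from 959 to 106 of 24291 on 8 arrays, and from 1551 to 191 of 23668 on 7. Under that scaling the downstream Sema3c probe spanned 6.93 to 8.10 in the mutant pools and 6.57 to 7.58 in wild type pools 2, 5 and 7, so wild type pool 5 exceeded mutant pool 7. The difference on 7 arrays was then 0.61 (exact permutation p = 0.171). Plxna2 spanned 4.78 to 5.69 in mutants and 4.56 to 5.32 in those wild type pools, a difference of 0.36 (exact permutation p = 0.343). The groups of both genes did not overlap under quantile scaling, normexp or the deposited matrix, each with 8 and with 7 arrays, nor those of Sema3c for the mean of its probes. The other alternatives leave the scaled values as they are.

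The other ligands did not separate. Sema3a, an axon repellent that acts through Nrp1, read -0.65, -0.44, -0.58 and -0.18 in mutant pools 1, 2, 3 and 7, against 1.09, -0.55, -0.51 and -0.24 in wild type pools 1, 2, 5 and 7 (downstream probe). Outside wild type pool 1 the groups lay over each other, with a difference of -0.03 and a 95% interval of -0.38 to 0.32. With that pool the difference was -0.41. The upstream Sema3a probe, 129009 bases away, differed by -0.04 on the same 7 arrays. Sema3d, another Nrp1 ligand, read -1.69, -2.22, -1.75 and -1.59 in mutant pools, against -0.42, -1.94, -2.10 and -2.17 in wild type pools 1, 2, 5 and 7. On 7 arrays 3 of the 4 mutant pools lay above all wild type pools and mutant pool 2 below them all, a difference of 0.26 (95% interval -0.14 to 0.65, exact permutation p = 0.2). With wild type pool 1 included the sign turned, to -0.16.

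Sema3f, which prefers Nrp2, had log2 values of 2.89, 2.74, 2.80 and 3.27 in mutant pools, against 0.69, 3.08, 2.65 and 2.58 in wild type pools 1, 2, 5 and 7. The difference was 0.15 on 7 arrays (95% interval -0.26 to 0.57), within the spread of the pools. It was 0.67 on 8 arrays, where wild type pool 1 was lower than every other pool. Sema3e, the ligand of Plxnd1, was barely measured. Its processed signals were 27.9, 14.0, 28.6 and 7.06 in mutant pools, against 1831, 25.2, 30.9 and 11.4 in wild type pools 1, 2, 5 and 7. Its spot cleared background in mutant pools 1 and 3 and in wild type pools 1, 2 and 5, and the probe passed the filter on dim probes only through wild type pool 1. The 8-array difference of -1.62 rests on that pool, and on 7 arrays Sema3e was not tested. Of the probes that were below background on all the other 7 arrays, 87.5% were called above it on wild type pool 1.

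**Figure D2:**
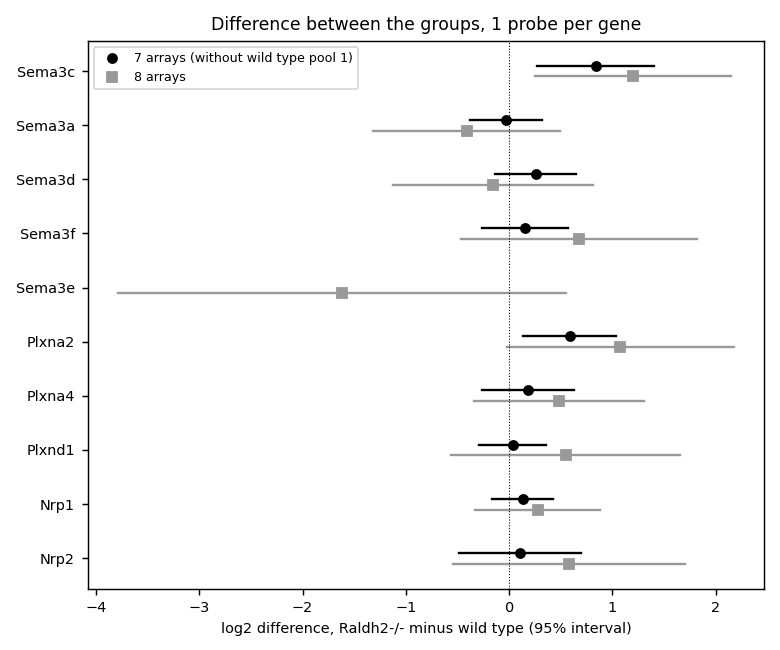
Log2 difference between Raldh2-/- and wild type pools (horizontal axis) with its 95% interval from limma for each gene, 1 probe per gene, on 7 arrays without wild type pool 1 (black circles) and on all 8 arrays (grey squares); Sema3e was tested on 8 arrays only. On 7 arrays the intervals of Sema3c (0.27 to 1.41) and Plxna2 (0.14 to 1.03) lie above 0 and the others cross it.

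Among the plexins, Plxna2, which pairs with neuropilins in receptors for class 3 semaphorins, was the one that separated. It read 1.53, 1.28, 1.53 and 1.26 in mutant pools 1, 2, 3 and 7, against -1.14, 1.02, 1.05 and 0.37 in wild type pools 1, 2, 5 and 7. The mutant pools were again close together, and the wild type pools spread below them in the same order as for Sema3c, pool 5 above pool 2 above pool 7. The mean was 1.40 ± 0.149 in mutants (SD, n = 4) and 0.814 ± 0.388 in wild type pools 2, 5 and 7 (SD, n = 3), a difference of 0.59 (SE 0.19, 95% interval 0.14 to 1.03) or 1.50-fold. The unadjusted p of limma was 0.0172, the adjusted p 0.397, and the two-sided exact permutation p 0.0286. On 8 arrays the difference was 1.07 (SE 0.484, adjusted p = 0.735 by limma). Without wild type pools 1 and 7 the Plxna2 difference was 0.36 and that of Sema3c 0.58. On 7 arrays 5.67% of all genes had a larger positive difference than Plxna2.

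Plxna4, a co-receptor for Sema3a and Sema6 ligands, read 1.52, 1.92, 2.08 and 1.38 in mutant pools, against 0.34, 1.39, 1.57 and 1.67 in wild type pools 1, 2, 5 and 7 (downstream probe). Mutant pools 2 and 3 were highest and mutant pool 7 lowest of the 7 arrays, a difference of 0.18 (95% interval -0.27 to 0.63), which was 0.48 on 8 arrays. Its upstream probe was dim, at -4.46 to -3.75 in mutant pools and -4.16 to -3.36 in wild type pools 2, 5 and 7, and went the other way by -0.15, and by -0.94 on 8 arrays. Plxnd1, the endothelial receptor of Sema3e, read 4.29, 4.76, 4.54 and 4.62 in mutant pools, against 2.47, 4.46, 4.41 and 4.69 in wild type pools 1, 2, 5 and 7. Its pools were close apart from wild type pool 1, with a difference of 0.04 (95% interval -0.29 to 0.36) at the downstream probe and -0.04 at the upstream probe, 486 bases away. On 8 arrays these differences were 0.55 and 0.30. A change of the size seen for Sema3c on 7 arrays lies outside the 7-array interval.

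The neuropilins overlapped between the groups. Nrp1, the co-receptor for Sema3a and VEGF-A, read 0.04, 0.28, 0.15 and 0.46 in mutant pools, against -0.48, 0.02, 0.20 and 0.08 in wild type pools 1, 2, 5 and 7. The difference was 0.13 on 7 arrays (95% interval -0.16 to 0.42) and 0.28 on 8. Nrp2, which binds Sema3f and Sema3c and also VEGF-C, read 3.77, 4.44, 3.82 and 4.50 in mutant pools 1, 2, 3 and 7, against 2.13, 4.42, 3.89 and 3.77 in wild type pools 1, 2, 5 and 7. It fell into high and low pools regardless of genotype: mutant pools 2 and 7 and wild type pool 2 were high, the other 4 of the 7 low. Its second probe, 21831 bases upstream and assigned to another transcript variant, had its highest values in the same 3 pools, 0.57 and 0.52 in mutant pools 2 and 7 and 0.74 in wild type pool 2. The group differences were 0.11 (95% interval -0.48 to 0.70) and 0.10 on 7 arrays, and 0.58 and 0.28 on 8 arrays. A log2 sum is the log2 of the summed scaled signals of a list on a linear scale, so its brightest genes weigh most. The log2 sum of 9 erythroid marker genes was also highest in these 3 pools, at 10.94, 10.83 and 10.87, against 9.85 to 10.67 in the other 4. So was that of 8 cardiac neural crest markers, at 4.14, 4.50 and 4.40, against 4.05 to 4.11. Both were picked from the marker lists below after their values were seen. The mean of the crest log2 values was highest there too, at 0.654, 0.913 and 0.903, against 0.217 to 0.645. Single crest genes went otherwise. Of the 7 arrays, Twist1 was lowest in mutant pool 2 (1.10) and Sox10 in mutant pool 7 (-2.98). The part of these markers in the Nrp2 values was not tested.

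**Figure D3:**
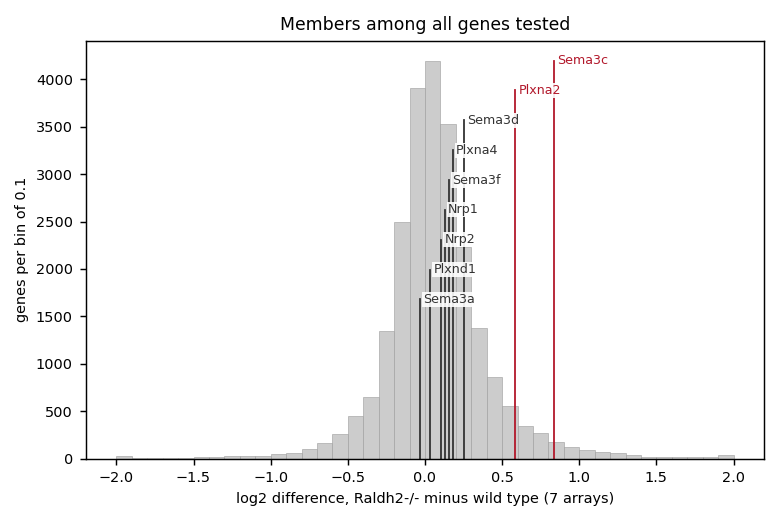
Number of genes per bin of 0.1 (vertical axis) by log2 difference between Raldh2-/- and wild type pools on 7 arrays (horizontal axis; values beyond 2 are counted in the end bins), with the 9 members tested as labelled lines, whose heights carry no value. Sema3c at 0.84 and Plxna2 at 0.59 lie in the right shoulder of all genes, and the other 7 between -0.03 and 0.26 lie in the bulk.

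Other genes of the pathway were taken from lists and none passed the adjusted threshold. Of 15 other semaphorins, 3 were higher and 2 lower at an unadjusted p under 0.05 on 7 arrays, with a median difference of 0.15. Of all genes 6.24% were higher and 4.35% lower. On 8 arrays 2 were higher and 0 lower, with a median of 0.17, where 0.659% and 1.12% of all genes were. Sema5a, a transmembrane semaphorin, read -0.86, -1.25, -1.004 and -0.74 in mutant pools 1, 2, 3 and 7, against -1.61, -1.35, -1.81 and -2.07 in wild type pools 1, 2, 5 and 7. All mutant pools were above all wild type pools, by 0.78 (SE 0.2, adjusted p = 0.351 by limma) on 7 arrays and 0.74 on 8. Sema7a, a membrane-anchored ligand, differed by 0.53 on 7 arrays and 0.72 on 8, and Sema4g by -0.76 and -0.67, with overlap. Sema6a (0.53, mutants higher) and the class 3 ligand Sema3b (-0.37, mutants lower) also separated on 7 arrays but not on 8, where they differed by 0.17 and -0.15, and are named after their values were seen. Of the 15, 2 thus separated with the mutants higher and 1 lower on 7 arrays, where 6.55% and 4.88% of all genes did. On 8 arrays 1 separated higher and 0 lower, where 3.95% and 1.54% of all genes did. Among 6 other plexins none separated and none had an unadjusted p under 0.05 by limma on either set of arrays; on 7 arrays Plxna1 differed by 0.07, Plxna3 by -0.20 and Plxnb3 by -0.20, and the median was -0.01. On 8 arrays Plxna1 differed by 0.17, Plxna3 by 0.01 and Plxnb3 by -0.85, and the median was 0.15. Plxnb1 and Plxnb2 each differed by 0.42 on 8 arrays, against 0.05 and -0.03 on 7.

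Co-receptors and signal transducers were measured for 27 of 29 genes, with a median difference of 0.07 on 7 arrays and 0.42 on 8. The mutants were entirely higher for Fes, a tyrosine kinase of the Sema3a pathway (0.25 on 7 arrays, 0.67 on 8), and for Cdk5, a kinase of the same pathway (0.28 on 7 arrays, 0.48 on 8). They were entirely lower on 7 arrays for the GTPase Rras, a target of plexin activity (-0.59), and for Ptk7 (-0.27), but overlapped on 8 arrays (-0.16 and -0.10). Of the 27 genes, 2 were thus entirely higher on each set, where 6.55% (7 arrays) and 3.95% (8 arrays) of all genes were. On 7 arrays 2 were entirely lower, where 4.88% of all genes were. Dpysl4 differed by 0.45 on 7 arrays and 0.89 on 8, with overlap. All 8 VEGF ligands and receptors had negative differences on 7 arrays, where 59.3% of all genes were above 0, and their median was -0.26. At an unadjusted p under 0.05, 3 of them (Vegfa, Vegfb and Pgf) were lower on 7 arrays, where 4.35% of all genes were. On 8 arrays 4 of the 8 were negative, none had such a p by limma, and the median was -0.22; Vegfd differed by -0.77 on 8 arrays and -0.43 on 7. Vegfa, whose product also binds Nrp1, read 2.77, 2.63, 3.08 and 2.47 in mutant pools, against 2.46, 4.21, 3.08 and 4.23 in wild type pools 1, 2, 5 and 7. On 7 arrays its groups met without crossing, between mutant pool 3 and wild type pool 5, and the difference was -1.11 (SE 0.305, adjusted p = 0.364 by limma); on 8 arrays it was -0.76. Vegfb differed by -0.33 on 7 arrays and 0.12 on 8, and Pgf by -0.35 and -0.56.

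Among outflow tract transcription factors, Tbx3 was higher in every mutant pool on 7 and on 8 arrays, with differences of 0.81 and 1.17. Its adjusted p by limma was 0.448 on 7 arrays and 0.735 on 8, and 6.55% and 3.95% of all genes separated so. Gata6, a GATA factor known to act on Sema3c and Plxna2 in mouse, read 4.18, 4.01, 4.27 and 3.79 in mutant pools, against 1.94, 3.88, 4.31 and 3.90 in wild type pools 1, 2, 5 and 7. Its difference was 0.03 on 7 arrays (95% interval -0.35 to 0.41) and 0.55 on 8. Tbx1 differed by 0.94 on 7 arrays (95% interval -1.10 to 2.99) and 1.33 on 8, and was high in wild type pool 2, at 3.34. Foxc1 differed by 0.31 on 7 arrays and 0.997 on 8, Isl1 by 0.53 and 0.69, and Mef2c by -0.28 and -0.31, all with overlap.

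Markers of the cell types a tract can hold were set beside these results. Their spans are log2 sums unless said otherwise, in which the brightest genes of a list weigh most. Of 10 marker lists, the log2 sums on 7 arrays were apart between the groups for epicardium, at 3.40 to 4.23 in mutants and 4.36 to 5.12 in wild type pools 2, 5 and 7, a sum that holds Krt19, which differed by -1.87. Of the 6 epicardial genes 3 had positive differences, Wt1 (0.15), Upk3b (0.22) and Msln (0.47), and 3 negative ones, and the mean of their log2 values overlapped, at -0.19 to 0.94 in mutants and 0.30 to 1.08 in those wild type pools. Wild type pool 1, with a sum of 3.29, lay below all of the others. Cardiac neural crest markers, where Plxna2 is known to be expressed, spanned 4.07 to 4.50 in mutants and 4.05 to 4.40 in those wild type pools, with 8 of 10 genes measured (not Foxd3 or Tfap2b). Heart muscle markers spanned 11.11 to 11.30 in mutants and 11.06 to 11.66 in wild type pools, with 14 of 14 differences negative on 7 arrays, where 59.3% of all genes were above 0, but 1 of 14 negative on 8 arrays. Endothelial markers, where Plxnd1 is known to be expressed, spanned 5.96 to 6.49 in mutants and 6.01 to 6.47 in wild type pools, and cushion mesenchyme 6.90 to 7.59 in mutants and 7.19 to 7.65 in wild type pools. Smooth muscle spanned 8.71 to 8.87 in mutants and 8.72 to 9.26 in wild type pools, and epithelium 5.22 to 5.83 in mutants and 5.68 to 6.42 in wild type pools. Neuron markers spanned 3.67 to 3.97 in mutants and 3.56 to 3.70 in wild type pools, erythroid cells 10.25 to 10.94 in mutants and 9.85 to 10.87 in wild type pools, and leukocytes 2.04 to 3.03 in mutants and 1.81 to 2.97 in wild type pools. Differences were positive, as for Sema3c and Plxna2, for 9 of 10 neuron markers on 7 arrays and 8 of 10 on 8, and for 9 of 9 erythroid markers on both. Of all genes 59.3% and 57.1% were positive on 7 and on 8 arrays. Other lists varied, with 6 and 2 of 7 leukocyte, 5 and 7 of 8 neural crest and 7 and 9 of 12 endothelial markers positive. For cushion mesenchyme these were 4 and 10 of 10, for smooth muscle 2 and 5 of 6, and for epithelium 5 and 3 of 8. The neuron markers Elavl3 (0.58), Elavl4 (0.32) and Stmn2 (0.58) were higher in every mutant pool on 7 arrays, where 6.55% of all genes were. Of these Stmn2 was so also on 8 arrays (0.96), where 3.95% of all genes were, and Elavl3 differed by -0.38 and Elavl4 by 0.17. These genes were named after their values were seen. No marker gene was below background on all 7 arrays among those measured. The part of these markers in the Sema3c and Plxna2 differences was not tested.

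**Figure D4:**
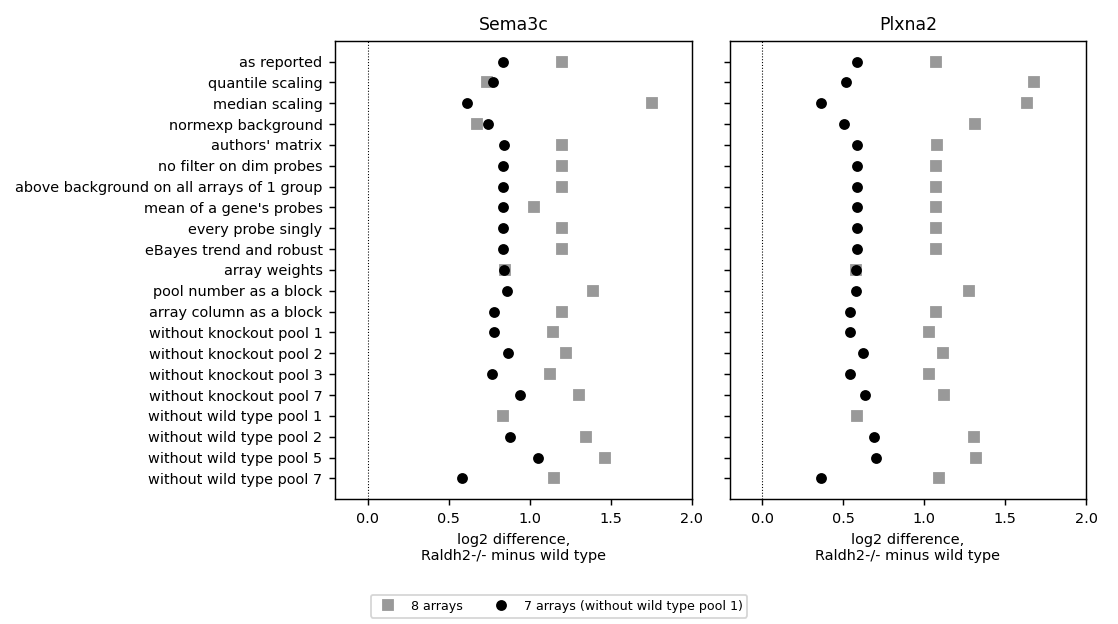
Log2 difference between Raldh2-/- and wild type pools (horizontal axis) for Sema3c and Plxna2 under each processing alternative and with each pool left out (rows), on 7 arrays (black circles) and on 8 arrays (grey squares). On 7 arrays Sema3c lies between 0.58 and 1.06 and Plxna2 between 0.36 and 0.71, and no point lies below 0.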

How the data were processed

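Each array was read by the authors as 1 scanner file of Agilent Feature Extraction 10.7.3.1 (design 028005), per the file headers; its processed signal is an intensity on a linear scale, background-corrected by that software. The authors also deposited a matrix of intensity values, which differed from the processed signals by at most 0.497%. RNA was extracted without DNase, per the labels' protocols. From the deposited intensity values, control spots and outlier-flagged spots were left out, spots of a probe averaged, log2 taken and the array's 75th percentile subtracted. Probes were kept if well above background on 3 or more arrays of a group, or on all arrays of a group with fewer than 3. Of the 15 member probes, 14 were well above background on all 8 arrays, and none was saturated. Probes were named through RefSeq accessions (26056 of 55681 matched) or the file's gene name. R 4.3.3 and limma 3.58.1 (lmFit, eBayes) were used, tested on simulated data, with 1 probe per gene (highest mean) and Benjamini-Hochberg over all genes. The number of arrays limits the precision. Intervals are 95%.

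Members, lists and tests were chosen with earlier results of these data known. Genes named outside the members are the 3 with the smallest p of each list in each fit, plus Aldh1a2, Gata6, Tbx1 and Foxc1. A gene that this rule names is not reported here. Nothing states that the pools of a group came from separate litters; p-values measure the spread between pools. Pools 1, 2 and 7 occur in both groups, and deviations of same-numbered pools from their group means correlated at -0.15, 0.32 and -0.41, so the numbers were not treated as pairs. Alternatives were quantile and median scaling, normexp, the deposited matrix, 2 other filters, other uses of probes, eBayes with trend, array weights, 2 blocks and leaving out each pool.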

Additional observations from a re-analysis of the deposited data

Results flagged for a closer look

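In 30 groups of 4 pools (15 probes, 2 groups each), Dixon's test at the 95% level set 1 pool apart in 2, where chance gives about 1 in 20, or 1.5. Both were wild type pool 1, the array that stood apart as a whole. Sema3d read -0.42 there, against -2.17 to -1.94 in the other wild type pools. The downstream Plxnd1 probe read 2.47 there, against 4.41 to 4.69.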

How the results depend on the processing

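The signs of Sema3c and Plxna2 were the same in all settings tried, and neither passed the adjusted threshold in any. On 8 arrays Sema3c spanned 0.68 (normexp) to 1.76 (median scaling) and Plxna2 0.58 (array weights) to 1.68 (quantile scaling). Genes past the threshold numbered 8 with array weights on 8 arrays (1 higher, 7 lower) and 22 with median scaling on 7 arrays (3 higher, 19 lower), no member among them, and 0 to 8 when 1 pool was left out of the 7 arrays (1 without mutant pool 7, 8 without wild type pool 5). The count of members that separated with the mutants higher was 0 under median scaling on 8 and on 7 arrays. That of all genes then fell to 106 of 24291 and 191 of 23668, from 959 and 1551. With 1 pool left out, 2 to 3 members separated so. The added ones were Sema3f (8 and 7 arrays, without wild type pool 2) and Sema3d (7 arrays, without mutant pool 2). Over all genes, 1505 of 23704 (8 arrays) and 2948 of 23720 (7 arrays) separated so without wild type pool 2. Without mutant pool 2, 1984 of 22742 genes did on 7 arrays. Sema3e separated with the mutants lower without wild type pool 7, by -2.14 on 8 arrays and by -0.86 on 7. In the second case the wild type group had fewer than 3 arrays, so the filter asked only for all of them and kept Sema3e. In both cases its probe passed the filter only through the wild type pools, where it was higher, so no result is drawn from it. Its signals outside wild type pool 1 were only 7.06 to 30.9, and the -2.14 includes that pool, at 1831. Over all genes, 534 of 24196 (8 arrays) and 1531 of 24251 (7 arrays) then separated with the mutants lower. The other signs turned as follows. On 8 arrays, Sema3a gave 0.15 under median scaling; Sema3d gave 0.10 (quantile scaling), 0.40 (median scaling), 0.033 (normexp), 0.21 (array weights) and -0.33 to 0.26 with a pool left out; Plxna4 gave -0.23 as the mean of its probes, and Nrp2 -0.0055 with array weights. On 7 arrays under median scaling, Sema3f gave -0.069, Plxna4 -0.043, Plxnd1 -0.19, Nrp1 -0.093 and Nrp2 -0.12. Also on 7 arrays, Sema3a gave 0.033 with the array column as a block and -0.13 to 0.065 with a pool left out; Plxnd1 gave -0.0010 as the mean of its probes, -0.016 with array weights and -0.034 to 0.12 with a pool left out; Nrp2 gave -0.0050 with array weights and -0.024 to 0.30 with a pool left out. With the pool number as a replicate block, 0 genes passed the threshold on either set; Sema3c gave 1.39 and 0.86, Plxna2 1.28 and 0.58 on 8 and 7 arrays, and Sema3a 0.087 on 7. The cause of these shifts was not tested.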
